A study of Mus musculus with 4 samples.

Results

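Non-dividing Krt14-low basal cells of the mouse trachea are described here: cells that carried Trp63 and Krt5 RNA, almost no Krt14, few keratins of hillock cells and almost no mitotic RNA. They were chosen by UMI counts per cell. Barcodes of 500 or more genes and no more than 15% mitochondrial UMIs were kept, and one was taken where it held at least 1 Trp63 UMI, at least 3 Krt5 UMIs, at most 1 Krt14 UMI and no Ptprc UMI. It also had fewer than 5 UMIs of Krt13 and Krt4 per 10000, at most 1 of 8 mitotic genes detected, and at most 1 UMI of the multiciliated genes Tmem212 and Ccdc153. In all, 4581 of 35901 kept barcodes met the rule. Because these values chose the cells, the levels of the genes in the rule are descriptions and carry no test.

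The study profiled single cells from mouse tracheae with 10x Genomics GEM-X 5′ libraries, 10 days after tamoxifen, and each of 4 groups was 1 library. The groups were dorsal and ventral trachea with both Ctnnb1 alleles floxed (Ctnnb1-fl/fl, called knockout) and dorsal and ventral trachea with 1 floxed allele (Ctnnb1-fl/+, called control). Ctnnb1 encodes beta-catenin. Mice of all groups carried P63-CreER, Ki67-lsl-Dre and Rosa26-rsr-GFP, and all received tamoxifen: the Cre is driven in P63-expressing basal cells. As the allele names read, Cre then lets Dre be made under Ki67, and GFP marks cells in which Dre has acted. The controls thus share the Cre, the Dre, the reporter, tamoxifen and 1 floxed allele with the knockouts. Tissue was dissociated with papain. Neither the number of mice per library nor the hour of collection is stated in the labels. The members numbered 1100 in the dorsal knockout, 673 in the ventral knockout, 1792 in the dorsal control and 1016 in the ventral control library.

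Basal cells are the stem cells of the tracheal surface: they sit on the basement membrane, held there by hemidesmosomes, and renew themselves or give rise to secretory and multiciliated cells. Notch signalling between neighbours directs their daughters towards the secretory fate, and Wnt signalling through beta-catenin acts on their division and on stem cells of the submucosal glands. In the mouse, Krt14 is low in most resting tracheal basal cells and is known to rise in basal cells after injury and in myoepithelial cells of the glands.

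The members carried the basal programme that their label names. Krt15, a basal keratin, stood at 2237 and 2199 counts per 1000000 UMIs (CPM, over the summed members of a library) in dorsal and ventral knockout members, and at 2299 and 2631 CPM in dorsal and ventral control members. Aqp3, a water and glycerol channel, stood at 1933 and 2628 CPM in dorsal and ventral knockout members and 1898 and 2345 CPM in dorsal and ventral control members. Dapl1, a marker of resting basal cells, stood at 673 and 574 CPM in dorsal and ventral knockout members and 570.4 and 609 CPM in dorsal and ventral control members. None of these 3 genes was in the rule. With each cell thinned to 5000 UMIs, Aqp3 was found in 99.6% to 99.8% of members, Krt15 in 97.6% to 98.8% and Dapl1 in 91.2% to 92.8%. In fibroblasts, which should lack them, the shares were at most 2.84%, 8.58% and 1.29%. Krt15 was also found in 84.9% and 34.8% of dorsal and ventral knockout secretory cells and 83.1% and 49.6% of dorsal and ventral control secretory cells, so it separates members from secretory cells less than from fibroblasts. Ventral secretory cells also held more gland RNA than dorsal ones, with values given below. The markers were also spread evenly over the members: the 1% of members with most Aqp3 held 3.14% to 3.66% of its UMIs. Of the genes in the rule, Trp63 stood at 177 and 177 CPM in dorsal and ventral knockout members and 149 and 149 CPM in the controls, and Krt14 at 0.257 to 1.36 CPM in the 4 libraries.

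The same cells carried large amounts of secretory RNA. Bpifa1, a secreted protein of airway club cells that makes up much of their RNA, stood at 34856 and 34144 CPM in dorsal and ventral knockout members and at 25397 and 29198 CPM in dorsal and ventral control members. Secretory cells of the same libraries held 145740.0 to 178900.0 CPM and fibroblasts 402 to 1006 CPM. The detoxifying genes Cyp2f2 and Cbr2 and the protease inhibitor gene Wfdc2 lay nearer to the secretory level. Cyp2f2 was at 9293 to 12977 CPM in members and 7066 to 12239 CPM in secretory cells, Cbr2 at 12828 to 15934 CPM in members and 8914 to 16881 CPM in secretory cells, and Wfdc2 at 5012 to 5211 CPM in members and 5129.8 to 11036 CPM in secretory cells. CPM is a share of all UMIs, and 8 secretory markers took 284554 to 418171 CPM in secretory cells against 47458 to 61715 CPM in members. The part of this in how near the levels lay was not tested. Cyp2f2 was also 1 of the genes that chose the secretory cells. The 1% of members richest in Bpifa1 held 22.5% to 26.8% of it. Scgb1a1, the classical club cell secretoglobin, was different: 62.2% to 91.5% of its UMIs in members sat in the richest 1% of cells, and at 5000 UMIs it was detected in 43.2% to 92.3% of members and in 51.6% to 97.7% of fibroblasts. Its share in members lay near or below that in fibroblasts, a cell type that should lack it, and no level of it is read as expression by members. The related Scgb3a2 was detected in 64.5% to 86.2% of members and in 10.9% to 44.5% of fibroblasts.

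**Figure D1:**
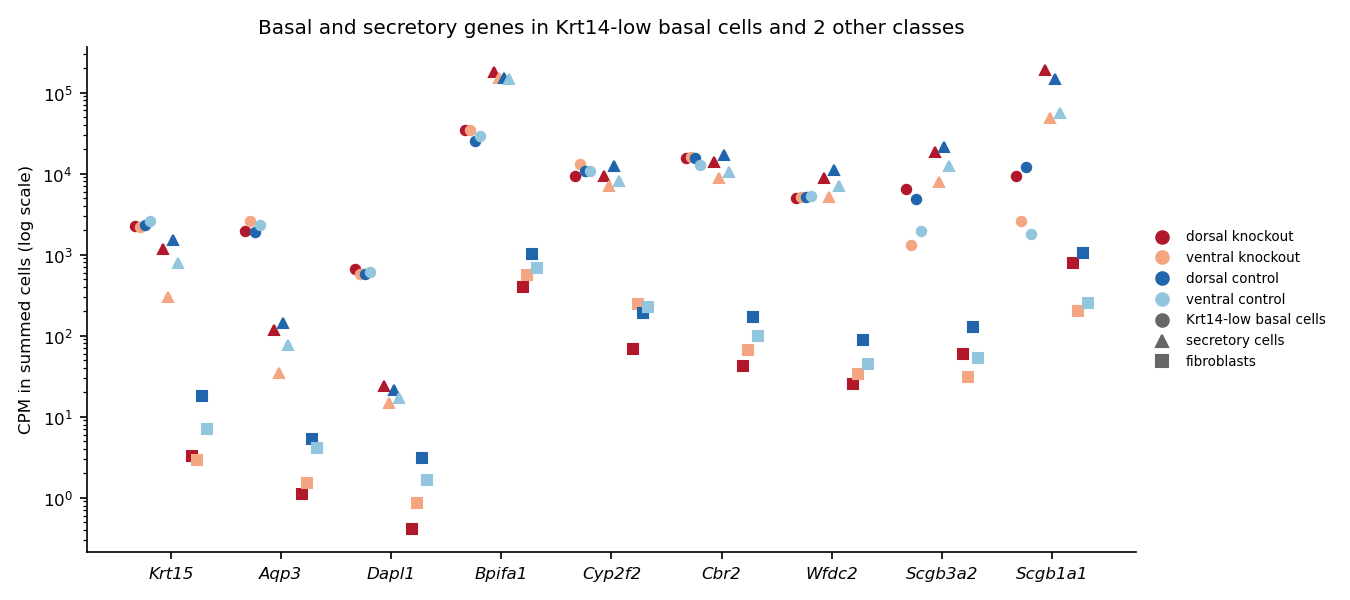
Levels of 3 basal and 6 secretory genes in Krt14-low basal cells (circles), secretory cells (triangles) and fibroblasts (squares) of each library, in CPM of the summed cells on a log axis. Aqp3 and Dapl1 lie far above secretory cells and fibroblasts in each library, Krt15 lies far above fibroblasts and nearer to dorsal than to ventral secretory cells, and Cyp2f2, Cbr2 and Wfdc2 lie close to the secretory level.

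Markers of other cell types were low apart from secretory, gland and 1 immune-listed gene. The summed level of 6 fibroblast markers was 319 to 630 CPM in members against 14656 or more in fibroblasts. That of 8 multiciliated markers was 29.9 to 58.7 CPM, and those of the tuft, ionocyte and neuroendocrine lists were at most 20.5 CPM. The immune list reached 1929 CPM in the ventral knockout members, of which Lyz2 made up nearly all. The 7 submucosal gland markers summed to 402 and 4912 CPM in dorsal and ventral knockout members and to 664 and 1996 CPM in dorsal and ventral control members. Of the Dmbt1 among them, 74.2% to 100% came from 1% of the cells. Dmbt1 averaged 144 CPM over the members of the 4 libraries, against 637 CPM for Ltf, so this share speaks for Dmbt1 only. Any pair of libraries shared 17 to 43 kept barcodes.

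The thresholds mattered unequally. No Krt14 UMI was found in 1093, 660, 1760 and 981 members of the dorsal knockout, ventral knockout, dorsal control and ventral control libraries. Just inside, with 1 Krt14 UMI, were 7, 13, 32 and 35 members, and just outside, with 2, were 2, 6, 10 and 20 cells. By contrast, 67, 39, 70 and 51 members had exactly 3 Krt5 UMIs, and 67, 22, 76 and 50 cells that met the other conditions had 2. The Trp63 condition had many cells on both sides of its edge. Exactly 1 Trp63 UMI was held by 187, 91, 544 and 215 members of the dorsal knockout, ventral knockout, dorsal control and ventral control. No Trp63 UMI was held by 147, 75, 543 and 150 cells that met the other conditions. At the mitotic condition, 203, 139, 274 and 246 members in that order had 1 mitotic gene detected. Just outside it, with 2 mitotic genes, were 23, 17, 27 and 33 cells. The hillock condition removed 117 and 16 cells that met all others in the dorsal and ventral knockouts, and 392 and 70 in the dorsal and ventral controls.

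Members made up 17.8% (16.8 to 18.8) of kept barcodes in the dorsal knockout and 10.0% (9.30 to 10.7) in the ventral knockout, against 13.5% (13.0 to 14.1) in the dorsal control and 10.4% (9.83 to 11.1) in the ventral control. Of all Trp63 and Krt5 cells that passed the multiciliated and Ptprc conditions, they were 83.7% and 87.0% in the dorsal and ventral knockouts and 71.2% and 82.9% in the dorsal and ventral controls. Intervals here are 95% and cover counting error only. With 1 library per group there is no replicate check on any difference between groups, so no p-value is given for one.

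Library-wide values bear on what follows. The median depth was 20375.5 and 24052 UMIs in dorsal and ventral knockout members and 15367 and 22939.5 UMIs in dorsal and ventral control members. Ribosomal protein RNA took a median of 22.2% of UMIs in dorsal knockout members, against 16.7% to 17.7% in the other 3 libraries. Ctnnb1 itself stood at 199 and 224 CPM in dorsal and ventral knockout members and 275 and 272 CPM in dorsal and ventral control members, ratios of 0.723 (0.699 to 0.748) dorsally and 0.824 (0.792 to 0.857) ventrally. Fibroblasts, which should not express the Cre, gave nearly the same ratios of 0.779 and 0.843. Reads come from the 5′ end and may lie outside the deleted part, so these counts do not check the deletion.

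Reporter RNA was lower in knockout members. With each cell thinned to 5000 UMIs, an eGFP UMI was found in 54.5% (51.5 to 57.4) of dorsal and 45.6% (41.8 to 49.5) of ventral knockout members, against 67.5% (65.3 to 69.7) of dorsal and 68.1% (65.2 to 71.0) of ventral control members. In fibroblasts the shares were 34.2% and 27.2% in the dorsal and ventral knockouts and 37.1% and 30.6% in the dorsal and ventral controls. Unthinned, at least 1 eGFP UMI was found in 81.2% and 79.6% of dorsal and ventral knockout members and 82.3% and 87.8% of the controls, with knockout members the deeper ones in each pair. Summed levels were also lower in the knockouts, at 332 and 255 CPM in dorsal and ventral knockout members and 604 and 593 CPM in the controls, with fibroblasts at 81.6 to 116 CPM. Dividing basal cells, in which the Ki67-driven recombinase is on by design, had shares of 82.6% and 71.4% of 23 and 7 cells in the dorsal and ventral knockouts and 94.9% and 81.3% of 59 and 16 cells in the controls.

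Krt14-high basal cells met every condition of the rule but held at least 5 Krt14 UMIs. They were rare, with 8, 43, 45 and 48 cells in the dorsal knockout, ventral knockout, dorsal control and ventral control libraries, 144 in all. Krt14-low cells carried more RNA of detoxifying and secretory genes and less of contractile, squamous and adhesion genes than Krt14-high cells of the same libraries. Without the dorsal knockout library and its 8 cells, fewer genes of several of these lists were called, as given below. UMIs were summed per library and population and compared with the library as a block, leaving out the genes of the rule and eGFP (edgeR quasi-likelihood test, Benjamini-Hochberg adjusted p under 0.05). Of 13362 genes, 134 (1%) were higher and 131 (0.98%) were lower in Krt14-low cells. Of the 25 xenobiotic and redox genes tested, 11 were higher and none lower, and of the 21 early secretory genes, 5 were higher and none lower. Of the 21 actin and contractile genes 5 were lower, of the 14 hillock and squamous genes 5, of the 17 desmosome and adherens junction genes 4 and of the 20 basal identity genes 3, with 1 basal identity gene higher. Median log2 differences of these lists were 0.55, 0.78, -0.69, -0.64, -0.20 and 0.00, beside 0.04 over all genes.

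Among the detoxifying genes, Cyp2f2, a P450 enzyme of club cells, stood at 9293, 12977, 10667 and 10614 CPM in Krt14-low cells of the dorsal knockout, ventral knockout, dorsal control and ventral control libraries. In Krt14-high cells it stood at 4421, 7638, 6539 and 6064 CPM in that order. The groups did not overlap, and the log2 difference was 0.92 ± 0.10 (SE, adjusted p = 0.000168). Cbr2, a carbonyl reductase, was higher by 1.74 ± 0.31 on the log2 scale (adjusted p = 0.0081), with 12828 to 15934 CPM in Krt14-low and 1621 to 9066 CPM in Krt14-high cells. Prdx6, a peroxiredoxin, was higher by 1.31 and Aldh1a7, an aldehyde dehydrogenase, by 1.67. Of the secretory list, the mucin gene Muc1 rose by 1.35 ± 0.22 (adjusted p = 0.00467). Aqp4, a water channel, was the 1 basal identity gene that was higher, at 152 to 275 CPM in Krt14-low and 42.4 to 109 CPM in Krt14-high cells (1.47 ± 0.18, adjusted p = 0.000566). The label's markers did not pass the test: Krt15 differed by 0.54 ± 0.14, Aqp3 by 0.47 ± 0.21 and Dapl1 by 0.36 ± 0.13, with adjusted p of 0.063, 0.392 and 0.222.

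The 10 named genes with the largest differences in favour of Krt14-low cells included the synaptic adhesion gene Cadm2 and the fatty acyl-CoA synthetase gene Acsm1. Cadm2 stood at 71.1, 376, 69.1 and 287 CPM in Krt14-low cells of the dorsal knockout, ventral knockout, dorsal control and ventral control, against 0, 55.4, 27.3 and 122 CPM in Krt14-high cells (1.98 ± 0.30, adjusted p = 0.00312). The 0 in the 8 cells of the dorsal knockout allows a level of up to 12.7 CPM (3 UMIs of the sum). Acsm1 stood at 49.4 to 88.2 CPM in Krt14-low and 10.5 to 28.3 CPM in Krt14-high cells. The others were Cytl1, Bmx, Erbb4, Tnfsf13os, C2cd4b, A2ml1, Chad and Cacnb2, with log2 differences of 3.93, 3.59, 2.34, 2.19, 2.19, 1.90, 1.84 and 1.76. Cytl1, a secreted cytokine-like protein, led them but came from few cells: 1.82% to 20.4% of members held a UMI, the top 1% of members held 58.9% to 99.4% of its UMIs, and with Krt14-high cells taken from 2 Krt14 UMIs on the log2 difference was 0.03. The calls of Cadm2 and C2cd4b ended with DESeq2, and those of A2ml1, C2cd4b, Cacnb2 and Chad ended without the dorsal knockout library.

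Krt17 and Lgals7 were among the genes that were lower in Krt14-low cells. Krt17, a keratin of activated basal cells, stood at 178, 152, 593 and 186 CPM in Krt14-low cells of the dorsal knockout, ventral knockout, dorsal control and ventral control, against 2643, 1549.5, 2111 and 1542 CPM in Krt14-high cells. It was lower in Krt14-low cells, with a log2 difference of -2.95 ± 0.23 (adjusted p = 1.8e-05). Lgals7, a galectin of stratified epithelium, was at 0.879 to 2.17 CPM in Krt14-low and 37.8 to 356 CPM in Krt14-high cells (log2 difference -5.83 ± 0.39, adjusted p = 6.47e-06). The matrix protein gene Tnc (-5.47), the desmoglein gene Dsg3 (-3.44), the collagen gene Col17a1 of hemidesmosomes (-1.83), the laminin gene Lama3 (-2.10), the P-cadherin gene Cdh3 (-1.23) and the Wnt ligand gene Wnt10a (-2.35) were also lower in Krt14-low cells. Of the 19 hemidesmosome and basement membrane genes as a list, 2 were lower and none higher (median -0.42). The 10 named genes were Lgals7, Tnc, Dsg3 and, with log2 differences between -4.12 and -3.15, Plb1, Serpinb2, Sox9, Fhod3, Krt6a, Kcnq5 and Tpm2.

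These differences were not of 1 kind in the 4 libraries. Sox9, a transcription factor of gland and distal airway progenitors, was at 1.95 to 6.44 CPM in Krt14-low cells. In Krt14-high cells it was at 4.24 and 145 CPM in the dorsal and ventral knockout and 21.6 and 109 CPM in the dorsal and ventral control. Acta2, the smooth muscle actin of myoepithelial cells, was at 0.586 to 3.56 CPM in Krt14-low cells, and in Krt14-high cells at 0 and 149.7 CPM in the dorsal and ventral knockout and 0 and 659 CPM in the dorsal and ventral control. The 0s allow up to 12.7 CPM in the dorsal knockout and 3.41 CPM in the dorsal control. The hillock-linked Serpinb2 and Krt6a ran the other way. Krt6a was at 5.21 to 41.1 CPM in Krt14-low cells, and in Krt14-high cells at 250.3 and 18.0 CPM in the dorsal and ventral knockout and 372 and 117 CPM in the dorsal and ventral control. The part of gland and hillock cells in the comparison was not tested. The counts of calls rested on single libraries: without the dorsal knockout library, with its 8 Krt14-high cells, 55 genes were higher and 83 lower. Leaving out the dorsal control gave 273 and 250, and leaving out the ventral knockout 187 and 197. Early secretory genes called higher numbered 1 without the dorsal knockout, 15 without the dorsal control, 10 without the ventral knockout and 8 without the ventral control. Contractile genes called lower numbered 1 without the dorsal knockout or the ventral control, 11 without the ventral knockout and 12 without the dorsal control. Without the dorsal knockout, 7 xenobiotic genes were called higher and 3 hillock genes lower, and without the ventral control 3 hillock genes. Basal identity genes called higher numbered 4 without the dorsal control and 3 without the ventral knockout. With no library block 0 genes were higher and 2 lower by edgeR, with 1117 at an unadjusted p under 0.05, and the block gave 116 and 169 by DESeq2.

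**Figure D2:**
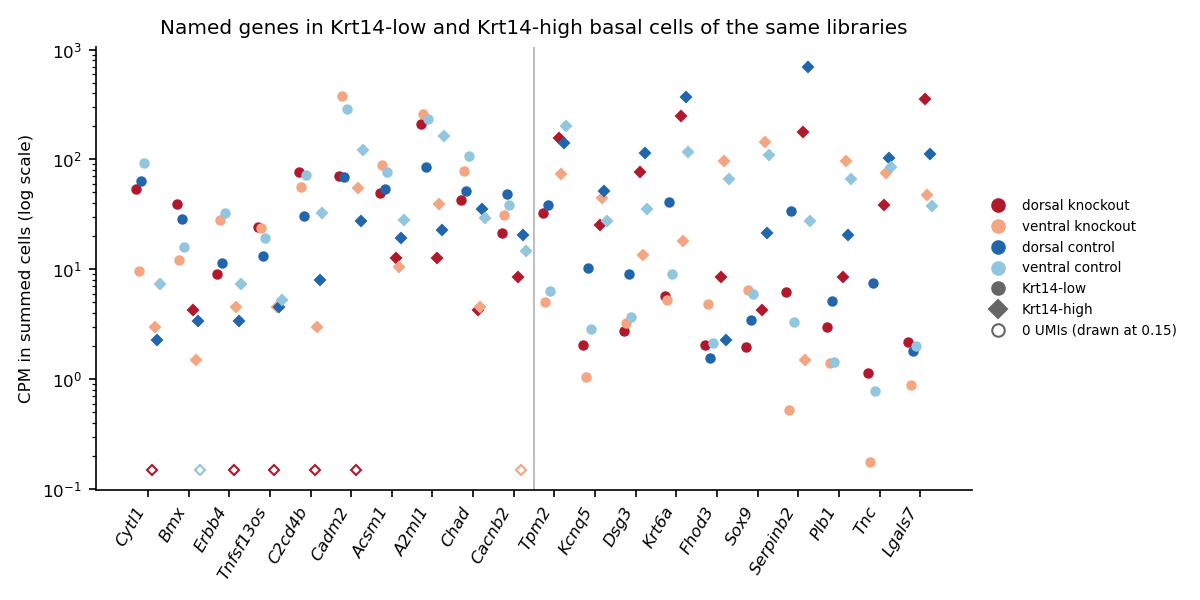
The 20 named genes in Krt14-low (circles) and Krt14-high (diamonds) basal cells of each library, in CPM of summed cells on a log axis, genes higher in Krt14-low cells left of the line. Open symbols mark sums with no UMI, and among genes to the right of the line the Krt14-high values of Sox9 and Fhod3 are highest in ventral and those of Serpinb2 and Krt6a in dorsal libraries.

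Dividing basal cells met the same conditions but held at least 3 of the 8 mitotic genes. The ventral knockout had only 7 and was left out, so 23, 59 and 16 cells of the dorsal knockout, dorsal control and ventral control were compared with the members there. Non-dividing cells held more secretory, detoxifying and clock gene RNA, while Krt15, Aqp3 and Dapl1 did not pass the test. Of 14346 genes, 508 (3.54%) were higher and 832 (5.8%) lower in non-dividing cells. Dividing cells were deeper, with medians of 40115, 24608 and 34140 UMIs in the dorsal knockout, dorsal control and ventral control. Members there had medians of 20375.5, 15367 and 22939.5 UMIs. With cells thinned to 8000 UMIs before the rule, 269 of 10690 genes were higher and 360 lower. The part of depth in the list differences was not tested. Of the 21 early secretory genes 12 were higher and none lower, of the 25 xenobiotic genes 14 and none, and of the 18 circadian clock genes 5 and none, with median log2 differences of 0.69, 0.52 and 0.57 beside 0.05 over all genes. Of the 24 S phase and licensing genes, which the rule did not use but which follow the same cycle as its mitotic genes, 20 were lower (median -2.01).

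Bpifa1 stood at 34856, 25397 and 29198 CPM in non-dividing cells of the dorsal knockout, dorsal control and ventral control, against 15906, 7175 and 9479 CPM in dividing cells. It was 1.63 ± 0.10 higher on the log2 scale (adjusted p = 3.65e-12), and no non-dividing value overlapped a dividing one. Cyp2f2 was higher by 0.91 ± 0.10 (adjusted p = 1.11e-07), Cbr2 by 0.84 ± 0.09 and Lypd2, a GPI-anchored protein of secretory cells, by 0.69 ± 0.13. Among 5 clock genes, Rora rose by 0.87 ± 0.16 (adjusted p = 0.000307), Nfil3 by 0.82 ± 0.14 and the repressor Nr1d1 by 0.56 ± 0.17. Krt15, Aqp3 and Dapl1 differed by 0.05 ± 0.12, 0.16 ± 0.11 and 0.12 ± 0.13, with adjusted p of 0.884, 0.474 and 0.696. Icam1, an adhesion receptor, was higher in non-dividing cells by 0.66 ± 0.13 (adjusted p = 0.000748), and Krt17 was lower (-0.93 ± 0.21, adjusted p = 0.00339).

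Genes listed for cell cycle exit and p53 response did not move together. Of 23, 3 were higher (Btg1, Ccng1 and Gadd45b) and 4 lower in non-dividing cells. The lower ones were the inhibitor genes Cdkn1b, Cdkn2a and Cdkn2c and the kinase gene Cdk4. Cdkn1a, the p21 inhibitor, stood at 560, 599 and 664 CPM in non-dividing cells of the dorsal knockout, dorsal control and ventral control and 511, 606 and 661 CPM in dividing cells (0.14 ± 0.12, adjusted p = 0.599). Cdkn2c, an inhibitor of Cdk4 and Cdk6, was at 6.97 to 8.59 CPM in non-dividing and 25.8 to 38.4 CPM in dividing cells (-1.88 ± 0.26, adjusted p = 8.26e-06). Of 15 Wnt feedback and target genes, Lgr6 (0.63 ± 0.15), Myc (0.62 ± 0.14) and Wif1 (2.47 ± 0.67) were higher and none lower.

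The named genes lower in non-dividing cells were all of the division programme: Pimreg, Depdc1a, Hmmr, Aurkb, Pclaf, Pbk, Bub1, H2ac10, Sapcd2 and Mxd3, each at most 0.155 CPM in members and 11.1 to 182 CPM in dividing cells. The rule chose members for lacking such RNA, so this is a description. Named genes higher in non-dividing cells were Cytl1, Igfbp6, Sftpa1, Tff2, Dmbt1, Muc5b, Pigr, Scgb1a1, Reg3g and Trf. Of these, Trf, the iron carrier transferrin, was among the less concentrated: the top 1% of members held 7.96% to 19.1% of it. It stood at 58.5, 59.8 and 126 CPM in non-dividing cells of the dorsal knockout, dorsal control and ventral control, against 9.59, 10.6 and 42.4 CPM in dividing cells (2.28 ± 0.21, adjusted p = 9.57e-09). For Cytl1, Igfbp6, Tff2, Dmbt1, Muc5b, Scgb1a1 and Reg3g the top 1% held at least 53.1%. The calls of Igfbp6, Dmbt1, Scgb1a1 and Reg3g ended with DESeq2, and those of Sftpa1 and Pigr ended with cells thinned to 8000 UMIs. Leaving out the dorsal control gave 305 genes higher and 469 lower, with 2 clock genes higher, 1 cell cycle exit gene in each direction and 1 Wnt target gene higher. Leaving out the dorsal knockout gave 3 clock genes and 1 Wnt target gene. With no library block 32 were higher and 417 lower, with 2 early secretory, 1 xenobiotic and no clock gene higher.

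Against secretory cells, which had no Trp63 UMI, at most 1 Krt5 UMI, and Cyp2f2 and secretoglobin RNA, the members held more RNA of most basal identity and hemidesmosome genes and less of most early secretory genes. Cyp2f2, Scgb1a1 and Scgb3a1 chose the secretory cells and were left out of this test. The basal identity, hemidesmosome and early secretory lists follow the same cell identities as the genes that chose the 2 classes. They are not independent of that choice, so the direction of these lists is a description. There were 1161, 1057, 3354 and 1560 secretory cells in the dorsal knockout, ventral knockout, dorsal control and ventral control. Gland cells were not taken out of this class. The 7 submucosal gland markers summed to 9277 and 111439 CPM in dorsal and ventral knockout secretory cells. In dorsal and ventral control secretory cells they summed to 11126 and 68633 CPM. Of 16583 genes, 3840 (23.2%) were higher and 4155 (25.1%) lower in members. This split depends on the scaling: with plain library sizes the counts were 11618 and 1202, and the median over all genes was 0.78 in place of -0.01. Of the 21 basal identity genes 18 were higher and none lower, and of the 19 hemidesmosome and basement membrane genes 16 and none, with median log2 differences of 2.07 and 1.30. Of the 19 early secretory genes 16 were lower and none higher, with a median of -1.57. Junction genes were split: of 17 desmosome and adherens junction genes 10 were higher and 3 lower (median 0.63), and of 16 tight junction genes 1 was higher and 9 lower (median -0.54). With plain library sizes the tight junction counts were 6 and 4, with a median of 0.25.

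Notch pathway genes differed in direction, the receptor genes among them. The ligand gene Jag2 stood at 67.6, 90.7, 85.0 and 104 CPM in members of the dorsal knockout, ventral knockout, dorsal control and ventral control, against 0.602 to 0.809 CPM in secretory cells (6.11 ± 0.16, adjusted p = 1.2e-05). Dll1, another ligand, was higher by 4.69 ± 0.15 and the receptor gene Notch1 by 2.01 ± 0.20. The receptor gene Notch3 was lower (-2.82 ± 0.12, adjusted p = 2.87e-05), at 1.81 to 2.79 CPM in members and 6.98 to 9.93 CPM in secretory cells. Of 15 Notch pathway genes, 7 were higher and 4 lower (median 0.70), beside 23.2% and 25.1% of all genes. With plain library sizes, under which most genes were higher, the counts were 10 and 1. The Notch target Hes1 is among the 4 (-0.73 ± 0.11), although its CPM of 176 to 288 in members overlapped that of 179.8 to 260.5 in secretory cells.

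Of 15 Wnt ligand and secretion genes, 8 were higher and 2 lower in members (median 1.29). Wnt4, a ligand, stood at 297, 257, 306 and 285 CPM in members of the dorsal knockout, ventral knockout, dorsal control and ventral control, and at 21.5, 18.3, 30.2 and 31.0 CPM in secretory cells (2.73 ± 0.12, adjusted p = 2.87e-05). Wls, the carrier that brings Wnt proteins to the surface, was at 296 to 401 CPM in members and 65.4 to 109 CPM in secretory cells (1.36 ± 0.12). The classical feedback genes of the pathway were close to absent: at 5000 UMIs Axin2 was found in 0.297% to 0.493% of members, against 7.78% to 10.7% of fibroblasts, and Lgr5 in at most 0.892% of members, against 7.63% to 15.3% of fibroblasts. Named genes higher in members were Dlk2, Cdh3, Col17a1, Defb1, Snai2, Jag2, Krt17, Ccdc3, Duoxa1 and Acaa1b. Dlk2, a membrane protein related to the Notch ligands, stood at 83.6 to 122 CPM in members and 0.0524 to 0.310 CPM in secretory cells (8.81 ± 0.38, adjusted p = 2.89e-05). Named genes lower in members were the mucus, gland and lipoxygenase genes Muc5b, Tff2, Alox12e, Alox15, Bpifb1, Gp2, Ltf, Kcnn4, Itln1 and Dmbt1, between -5.79 and -4.81 on the log2 scale. The part of gland cells within the secretory class in these differences was not tested.

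A set of genes stood apart between dorsal and ventral members in both the knockout and the control pair. A gene counted as measured with at least 50 UMIs and 20 CPM in 1 library of a pair, and past the fold at a ratio of 2 or more or 0.5 or less. In knockouts 82 of 6247 genes (1.31%) were past the fold on the dorsal side and 414 (6.63%) on the ventral side, and in controls 117 of 6388 (1.83%) and 152 (2.38%). The genes named here were chosen for being on the same side in both pairs, so that side is no finding. Of 11 interferon-response genes measured in knockouts 4 were past the fold on the ventral side and none on the dorsal side, and in controls 5 of 15 and none, with median log2 ratios of -0.77 and -0.74. The median over all genes was -0.14 in knockouts and 0.06 in controls. Of the hillock genes that the rule did not use, 2 of 5 were past the fold dorsally in knockouts and 7 of 9 in controls (medians 0.46 and 1.29). The rule capped the hillock keratins Krt13 and Krt4, so these genes are not independent of it. Of 16 actin and contractile genes, 4 were past the fold dorsally in each pair and 3 ventrally in knockouts, with medians of -0.10 in knockouts, which turned positive with median-of-ratios size factors, and 0.52 in controls.

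Porcn, the acyltransferase that readies Wnt proteins for secretion, stood at 359 and 47.1 CPM in dorsal and ventral knockout members, a ratio of 7.63 (7.10 to 8.21), and at 408 and 39.0 CPM in dorsal and ventral control members. In single cells thinned to 5000 UMIs it was found in 66.3% and 16.8% of dorsal and ventral knockout members and in 73.6% and 14.0% of dorsal and ventral control members, with 6.12% to 7.88% of fibroblasts. Secretory cells showed it on the same side, in 55.0% and 10.4% of dorsal and ventral knockout cells and 65.7% and 13.2% of dorsal and ventral control cells. Dorsal and ventral secretory cells also differed in gland RNA, as given above. Other dorsal genes were Tppp3, a tubulin-binding protein, Tpm2, a tropomyosin, Cav1, the caveolin scaffold, Barx2, a homeobox factor, and F5, Clca3b, Bok, Rnf186, Crip1, Crip2 and Cxcl17. Cav1 stood at 482 and 101 CPM in dorsal and ventral knockout members and 524 and 108 CPM in the controls. The keratin gene Krt7, chosen after its values were seen, was at 1016 and 434 CPM in dorsal and ventral knockout members and 966 and 476 CPM in the controls.

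Eya4, a transcriptional regulator with phosphatase activity, stood at 7.97 and 90.5 CPM in dorsal and ventral knockout members, a ratio of 0.0881 (0.0761 to 0.102), and at 11.2 and 101 CPM in dorsal and ventral control members. It was found in 3.92% and 34.6% of dorsal and ventral knockout members and 5.09% and 39.0% of the controls, so most ventral members had no Eya4 UMI at this depth. Isl1, a homeodomain factor, was found in 4.74% and 26.6% of dorsal and ventral knockout members and 4.92% and 23.0% of the controls. The proton pump subunit gene Atp6v1b1, the adhesion genes Cadm2, Lrrc4c and Sdk1, and Chst9, Xkr4 and Tmtc1 were ventral as well, as were Tgtp1, Tgtp2 and Cyp4a12b, whose near-identical relatives may share reads. Cadm2 joins this with the comparison above: it was higher in ventral members and, within each library, in Krt14-low over Krt14-high cells. Irgm1, an interferon-induced GTPase, stood at 11.7 and 59.5 CPM in dorsal and ventral knockout members and 26.2 and 89.2 CPM in the controls, and Irf1, an interferon-induced regulator, at 163 and 366 CPM in the knockouts and 182 and 408 CPM in the controls.

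Members with and without a UMI of a ventral gene were compared for 9 pairs of a ventral gene (Cadm2, Eya4 or Isl1) and a dorsal gene (Cav1, Porcn or Tppp3), chosen after these values were seen. The share with the dorsal gene was lower in members with the ventral gene for 8 of 9 pairs in the dorsal knockout and for 9 of 9 in each of the other 3 libraries. The 95% intervals of the shares did not overlap for 4 pairs in the dorsal knockout and 3 in the ventral knockout, and for 8 in the dorsal control and 3 in the ventral control. Other gene pairs were not counted, so no background share stands beside these counts. They describe the 9 pairs only. The exception in direction was Cav1, found in 76.9% (63.2 to 87.5) of dorsal knockout members with an Isl1 UMI and 76.4% (73.7 to 79.0) of those without. Tppp3 was found in 39.5% (25.0 to 55.6) of dorsal knockout members with an Eya4 UMI and 48.9% (45.8 to 52.0) of those without, an overlap of the intervals. In the dorsal knockout, Porcn was found in 32.6% (19.1 to 48.5) of 43 members with an Eya4 UMI and in 67.7% (64.8 to 70.5) of 1053 members without one. In the dorsal control the shares were 52.2% (41.4 to 62.9) of 90 and 74.7% (72.6 to 76.8) of 1677. In the ventral knockout they were 14.2% of members with and 18.2% of members without Eya4, and in the ventral control 11.9% with and 15.3% without. Cav1 was found in 62.0%, 25.5%, 65.7% and 24.2% of members with a Cadm2 UMI in the dorsal knockout, ventral knockout, dorsal control and ventral control, and in 81.2%, 45.3%, 84.8% and 39.4% of those without. All cells were thinned to the same depth, and a mix of dorsal with ventral tissue at dissection was not tested.

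**Figure D3:**
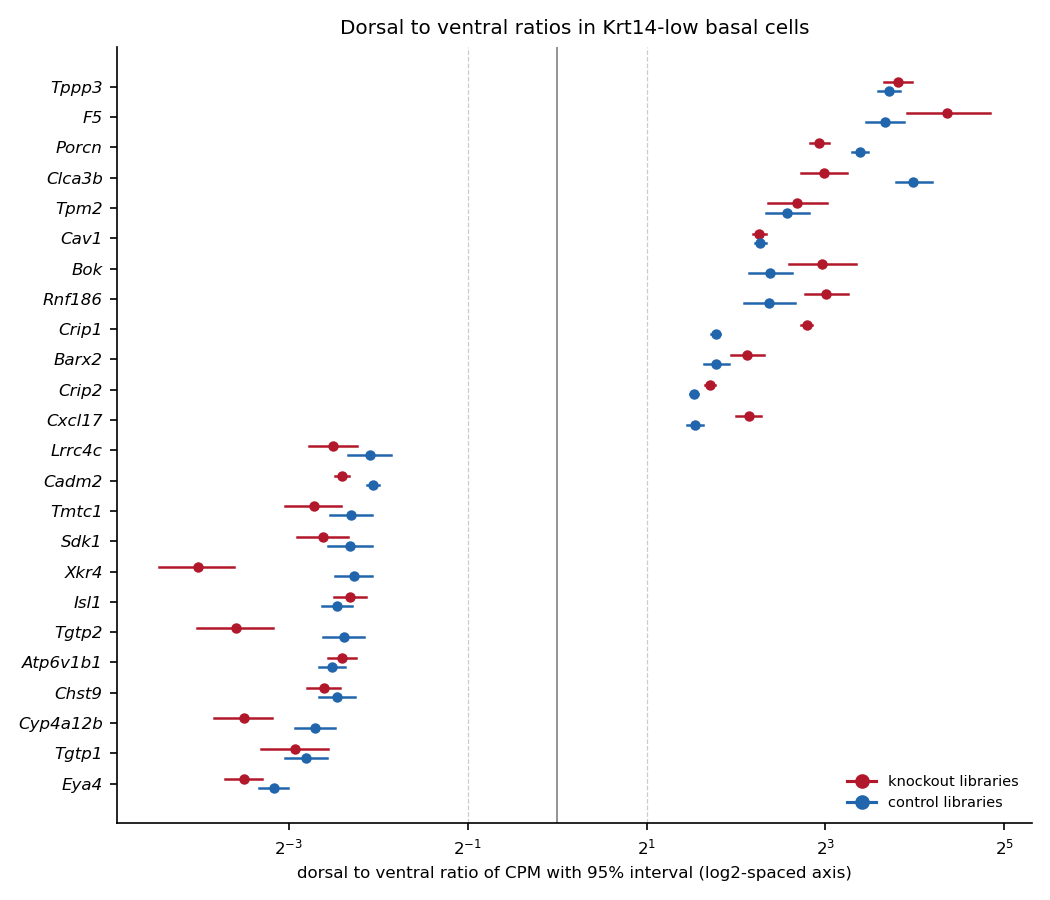
Dorsal to ventral ratio of CPM in Krt14-low basal cells for the 24 named genes, with 95% intervals of counting error, in the knockout and control pairs on a log2-spaced axis. Both pairs lie on the same side for each gene because the rule asked for it, with F5, Porcn and Tppp3 far to the right and Eya4 and, in knockouts, Xkr4 far to the left.

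Knockout and control members differed most dorsally, and there mainly by lower values in the knockout. In the dorsal pair 47 of 6226 genes (0.755%) were past 2-fold higher and 326 (5.24%) past 2-fold lower in knockout members, and in the ventral pair 13 of 6202 (0.21%) and 31 (0.5%). The median log2 ratio over all genes was -0.19 dorsally and -0.02 ventrally. Several lists lay below that dorsally. Of 8 hillock and squamous genes that the rule did not use, 5 were past 2-fold lower dorsally (median -1.09), and of 6 ventrally none (-0.10). These genes are not independent of the rule, which capped the hillock keratins Krt13 and Krt4. Above 0 and under that cap were 566 dorsal knockout and 1179 dorsal control members. Of 14 desmosome and adherens junction genes 6 were past 2-fold lower dorsally and none ventrally (medians -0.88 and -0.20), of 14 hemidesmosome and basement membrane genes 6 and 1 (-0.83 and -0.14), and of 12 tight junction genes 3 and none (-0.46 and -0.03). Of 19 immediate early genes 5 were past 2-fold lower dorsally (-0.57), of 16 actin and contractile genes 3 (-0.65) and of 14 YAP targets none (-0.60), with 1 of the 14 above a ratio of 1. Of the interferon-response genes, 2 of 12 were past 2-fold lower dorsally and 2 of 15 ventrally, with medians of -0.37 and -0.36. None of these lists had a gene past 2-fold higher dorsally. Fibroblasts gave -0.38 for the hillock, -0.54 for the immediate early, -0.37 for the actin and -0.45 for the YAP list dorsally. For the interferon list they gave -0.41 dorsally and -0.09 ventrally. For the adhesion lists, fibroblasts hold little RNA of most of these genes, so their values bear on few of them. The fibroblast medians of the same genes were -0.93, -0.52 and -1.08 dorsally in the desmosome, hemidesmosome and tight junction lists. Dsp, for one, stood at 0.116 CPM in dorsal knockout and 5.61 CPM in dorsal control fibroblasts, and Jup had fibroblast ratios of 0.698 dorsally and 1.29 ventrally. The part of what fibroblasts show in the members' values was not tested.

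Cdh1, the E-cadherin that binds beta-catenin, stood at 129 and 298 CPM in dorsal and ventral knockout members and 287.5 and 375.5 CPM in dorsal and ventral control members, ratios of 0.449 (0.432 to 0.467) and 0.793 (0.766 to 0.820). Jup, the plakoglobin gene of desmosomes and adherens junctions, stood at 82.9 and 145 CPM in dorsal and ventral knockout members and 178 and 172 CPM in dorsal and ventral control members. Dsp, the desmosome linker, was at 0.474 of the dorsal control level and 0.808 of the ventral one. Ocln, a tight junction protein, was at 0.262 (0.244 to 0.281) and 0.722. Lama3 was the 1 gene of these lists past the fold in both pairs, at 12.9 and 9.31 CPM in dorsal and ventral knockout members and 31.5 and 22.0 CPM in the controls. For most of these genes the dorsal knockout library was the low one of 4, and it is also the one with the highest share of ribosomal protein RNA. The part of that shift in the result was not tested.

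Wnt target genes that can be measured in members were few. Of 8, 2 were past 2-fold lower dorsally and none ventrally, with medians of -0.48 and -0.12. Fibroblast medians of the same genes were lower still, at -0.85 dorsally and -0.24 ventrally. The part of what fibroblasts show in the members' values was not tested here either. Myc stood at 126 and 336 CPM in dorsal and ventral knockout members and 422 and 374 CPM in the controls, ratios of 0.298 (0.287 to 0.309) and 0.897 (0.868 to 0.927), and Dkk3, a secreted modulator of the pathway, was at 0.437 and 0.607. Fibroblast ratios of Myc were 0.630 and 0.837. Wnt4 was nearly level, at 0.971 (0.943 to 1.00) and 0.901 (0.867 to 0.935). Axin2 lay near 1 CPM in all 4 libraries, with a ratio whose interval ran over 0.617 to 2.09 dorsally and 0.376 to 1.37 ventrally, so at this depth the dorsal interval still holds a 2-fold higher value and the ventral one a 2-fold lower value.

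Some genes were low in the dorsal control library rather than different in both knockouts. Id1, a target of BMP signalling, stood at 214 and 195 CPM in dorsal and ventral knockout members and 82.2 and 221 CPM in dorsal and ventral control members. Hspa1a, a heat shock protein, stood at 871 and 751 CPM in dorsal and ventral knockout members and 332 and 998 CPM in dorsal and ventral control members. Nrarp, a feedback gene of Notch, stood at 29.5 and 28.8 CPM in dorsal and ventral knockout members and 10.7 and 25.9 CPM in dorsal and ventral control members. In each case the dorsal control was the low one and the other 3 libraries lay close together. Id1 and Id3 were the 2 of 10 BMP and TGF-beta genes past 2-fold higher dorsally, Hspa1a and Hspa1b the 2 of 18 heat shock genes, and Nrarp and Hey1 the 2 of 10 Notch genes, with 1 Notch gene lower (medians 0.21, 0.12 and -0.31). Krt17 was also set apart by the dorsal control, in the other direction: it was detected in 35.6% and 28.5% of dorsal and ventral knockout members and 60.6% and 34.6% of dorsal and ventral control members.

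Named genes higher in both knockouts included Akr1c14, an aldo-keto reductase, Slpi, a protease inhibitor, and the glucocorticoid-induced Tsc22d3 and Fkbp5. Akr1c14 stood at 29.1 and 34.7 CPM in dorsal and ventral knockout members and 9.85 and 16.9 CPM in the controls, ratios of 2.96 (2.60 to 3.37) and 2.06 (1.82 to 2.33). In fibroblasts, which held at most 2.32 CPM of it, the ratios were 0.850 and 0.746. Tsc22d3 at 2.99 and 1.75 and Fkbp5 at 1.87 and 1.97 had fibroblast ratios of 2.08 and 1.68, and of 1.97 and 2.08. Chd9, a chromatin remodeller, was at 1.65 (1.63 to 1.68) and 1.66 (1.64 to 1.69) with 0.987 and 1.18 in fibroblasts. Gdpd2, Sulf2, Arl4d, Apoc1, Sftpd, Ccl20 and Pnpla7 completed the group, between 1.51 and 6.13. Ccl20 came from few cells: 9% of dorsal knockout and 3.96% of dorsal control members held a UMI, and in the 4 libraries 34.4% to 64.6% of its UMIs lay in 1% of members. For Slpi that 1% held 18.0% in the dorsal knockout and 55.5% in the dorsal control. Of 13 glucocorticoid-responsive genes, 2 were past 2-fold higher and 1 lower dorsally and none ventrally (medians -0.28 and 0.10), and those higher were Tsc22d3 and Ddit4.

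Named genes lower in both knockouts were led by Cxcl10, a chemokine, and Nr1d1, a repressor of the circadian clock. Nr1d1 stood at 17.6 and 35.9 CPM in dorsal and ventral knockout members and 117 and 85.3 CPM in the controls, ratios of 0.151 (0.137 to 0.166) and 0.420 (0.384 to 0.460), and fibroblasts gave 0.162 and 0.312. Of 12 clock genes 4 were past 2-fold lower dorsally, and of 13 ventrally 1, which was Nr1d1 (medians -0.31 and 0.10). Cald1, an actin-binding regulator of contraction, stood at 15.2 and 50.7 CPM in dorsal and ventral knockout members and 62.2 and 96.6 CPM in the controls, ratios of 0.245 and 0.525, while its fibroblast ratios were 1.32 and 1.03. Areg, an EGF receptor ligand, was at 0.329 and 0.465, Lama3 at 0.407 and 0.424, Sema3e at 0.336 and 0.439 and the mitochondrial regulator Ppargc1a at 0.430 and 0.459. Lsmem1, Foxq1, Muc16 and Aebp2 lay between 0.390 and 0.562. Cxcl10, at 0.139 and 0.223, came from few cells: 53.5% to 87.2% of its UMIs lay in 1% of members.

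**Figure D4:**
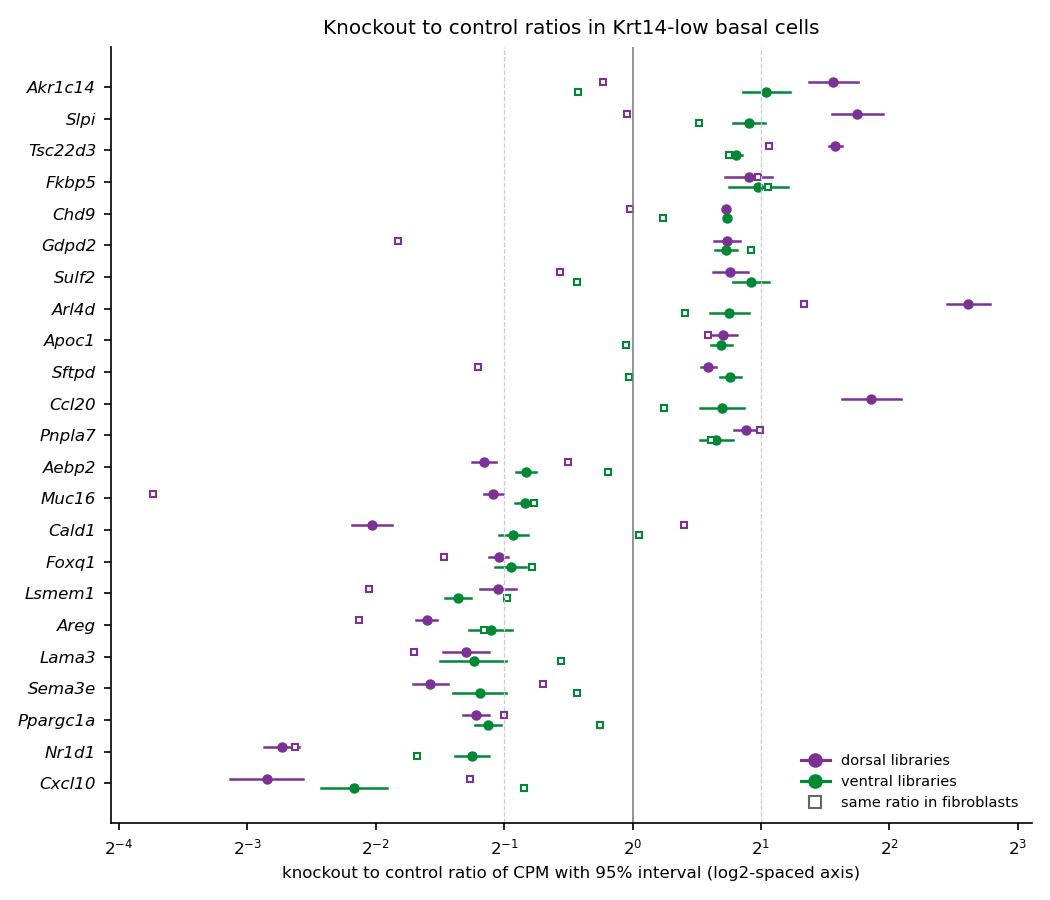
Knockout to control ratio of CPM in Krt14-low basal cells for 23 named genes, with 95% intervals of counting error, in the dorsal and ventral pairs on a log2-spaced axis, and the same ratio in fibroblasts as open squares. Fibroblast ratios of Nr1d1, Tsc22d3 and Fkbp5 lie on the same side as those of basal cells, and those of Akr1c14 and Cald1 do not.

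**Figure D5:**
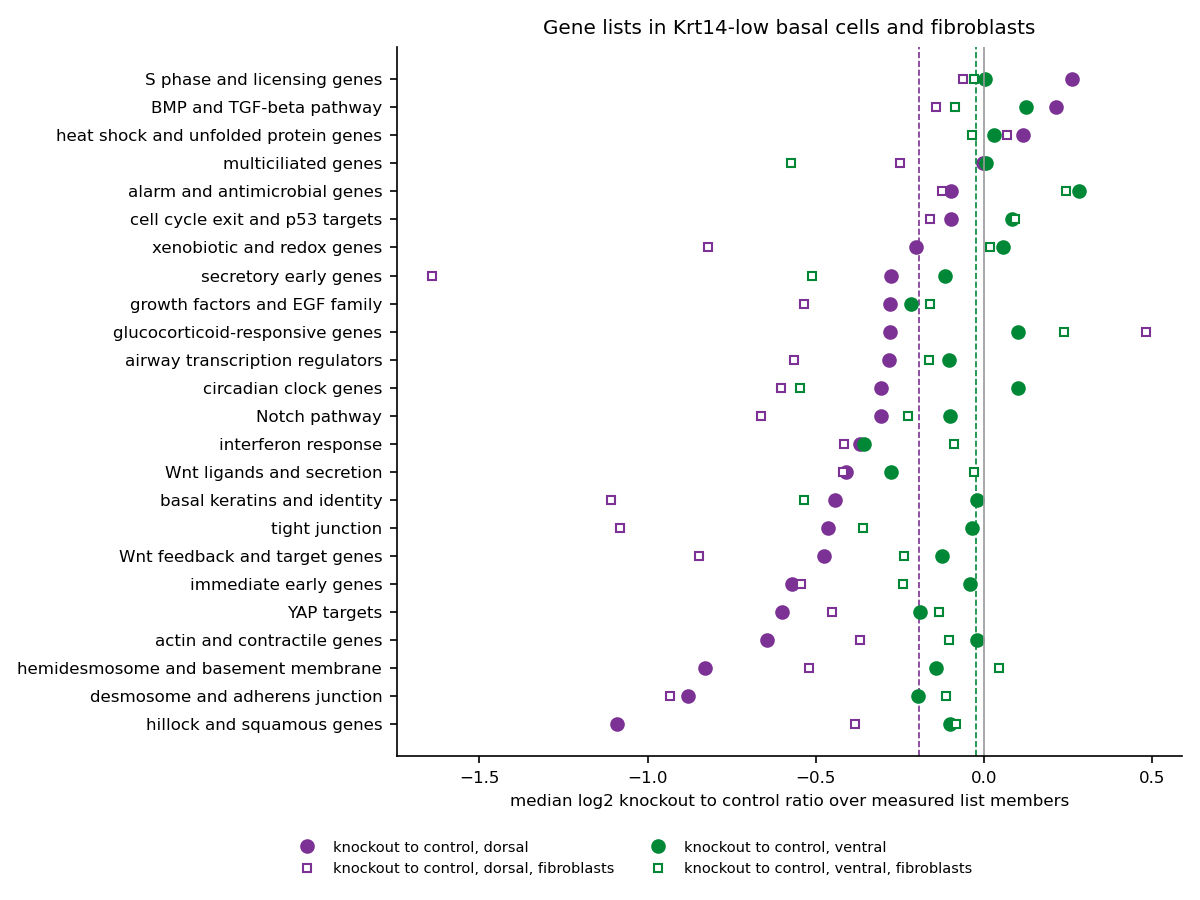
Median log2 knockout to control ratio of the gene lists in Krt14-low basal cells (filled circles) and, for the same genes, in fibroblasts (open squares), dorsal and ventral pairs, with dashed lines at the medians over all genes (-0.19 dorsally, -0.02 ventrally). Dorsal medians of the hillock, desmosome and hemidesmosome lists in basal cells lie furthest to the left, while ventral medians of most lists lie closer to their line, with the interferon list at -0.36, the Wnt ligand list at -0.28 and the alarm list at 0.28.

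Variation among the members was ranked gene by gene. Over 2824 genes with a mean of at least 0.2 UMIs in members thinned to 5000 UMIs, the excess of the squared coefficient of variation over Poisson noise had a median of 0.0681, taking the lowest of the 4 libraries for each gene. The 15 highest were Mgp, Scgb3a1, Lyz2, Scgb1a1, Ltf, Reg3g, Sprr1a, Nupr1, Cyp2a5, Lars2, Cdk8, Dcn, Bpifa1, Ptgs2 and Apoc1. For Mgp, a matrix Gla protein of cartilage and fibroblasts, the excess was 54.7 to 76.1, and 4.74% to 9.27% of members held a UMI at this depth. Mgp stood at 29319 and 23662 CPM in dorsal and ventral knockout fibroblasts, and its 152 to 326 CPM in members did not differ by the test from its 113 to 207 CPM in secretory cells (log2 difference -0.14 ± 0.24, adjusted p = 0.668), so no variation of it is read as expression by members. The same holds for Scgb1a1, whose share in fibroblasts is given above. It also holds for Scgb3a1, found in 17.4% and 47.8% of dorsal and ventral knockout members and 15.3% and 60.7% of fibroblasts there. Dcn, a fibroblast marker, went with Mgp over members (correlation of log counts 0.346 to 0.384 in the 4 libraries), and its variation is not read as expression either. For Bpifa1 the excess was 3.18 to 3.67, with 89.9% to 98.2% of members holding a UMI, so its variation was in amount. Of these 15 genes, 12 were among the 15 highest when cells scored as doublets by Scrublet were left out, and 9 when cells were thinned to 8000 UMIs instead.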

How the data were processed

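Droplet libraries were processed with Cell Ranger 10.0.0 against GRCm39, per the submitters' processing notes. The deposited matrices hold raw UMI counts for 33697 features, whole numbers with no further scaling. Members and gene lists were chosen with earlier results of these data known.

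Barcodes were kept and classed by UMI thresholds given in the report (Python 3.11.15, numpy 2.4.6, scipy 1.17.1, scanpy 1.11.5). Of 6744 to 13962 barcodes per library, 6185 to 13246 were kept. Doublets were left in. Scrublet, set to a rate of 0.4% per 1000 barcodes, was an alternative and took out 2.47% to 5.30% of kept cells. CPM is a gene's UMIs per 1000000 of the summed cells. UMIs summed per library and class were compared with edgeR 4.0.16 in R 4.3.3 (TMM, filterByExpr, quasi-likelihood test, Benjamini-Hochberg adjustment, all features of the table), and the script was tested on simulated data. Populations come from the same libraries, so the library was a block and pairs the sums: this is a difference within libraries, and cells are not replicates. Dividing and secretory sums needed at least 10 cells. Krt14-high sums had no such minimum, so the 8 cells of the dorsal knockout were kept. Log2 differences are on the TMM scale, with SE from the F statistic. DESeq2 1.42.0 was an alternative. Genotype and region contrasts have 1 library a side and are CPM ratios with conditional binomial 95% intervals, of counting error only. Shares carry exact Clopper-Pearson intervals.

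Named genes were, in tests, the 10 largest differences each way among those with adjusted p under 0.05, the same sign in each library and at least 20 CPM in the higher population. In ratios they were the 12 each way with the largest smaller bound over both pairs, leaving out genes under 10% of the highest other class. In variation they were the 15 highest, and in lists 2 to 4 of the largest. Predicted genes and genes of the rule were not named, and 1 gene that the ratio rule picked is not reported here. Genome coordinates and sequences were not used here.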

Additional observations from a re-analysis of the deposited data

Results flagged for a closer look

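The knockout to control ratio lay on opposite sides of 1 in the dorsal and ventral pairs for 4 named genes with intervals that leave out 1. The difference between the pairs was not tested, since each side is 1 library. Id1 had a ratio of 2.60 dorsally and 0.881 ventrally. Hspa1a had 2.62 dorsally and 0.752 ventrally, and Hspa1b, whose near-identical copy may share its reads, had 2.24 and 0.821. Crip1, a LIM domain protein, had 1.62 and 0.801. For Id1, Hspa1a and Hspa1b the dorsal control library was the low one of 4, and fibroblasts of the same libraries gave Id1 ratios of 1.80 and 0.874 and Hspa1a ratios of 1.04 and 0.782.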

How the results depend on the processing

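Sums pair by library, and the library block decides many calls. With no replicate block 0 genes were higher and 2 lower in members than in Krt14-high cells, with 1117 genes at an unadjusted p under 0.05 and 116 higher and 169 lower by DESeq2 with the block. Early secretory genes higher than in Krt14-high cells numbered 12 to 16 with Scrublet, thinning or no filter, and S phase genes lower than in dividing cells numbered 9 with thinning. Without the block the counts were 32 and 417 against dividing and 2431 and 2653 against secretory cells. Leaving out 1 library gave 55 to 273 higher and 83 to 250 lower against Krt14-high cells, and 305 to 552 and 469 to 809 against dividing cells. With no filter on low counts, 539 and 318 genes were called against Krt14-high cells and 1146 were higher against dividing cells. With Scrublet doublets removed, 244 and 201 were called against Krt14-high cells. Against dividing cells, 324 were higher with plain library sizes and 297 with DESeq2, and thinning cells to 8000 UMIs gave 269 and 360. Against secretory cells, plain library sizes gave 11618 and 1202. Apart from the effect of the number of genes or samples, the cause was not tested.

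Thinned to 8000 UMIs before the rule, members were 13.3% and 8.37% of cells in the dorsal and ventral knockouts and 10.6% and 8.26% in the controls. Asking for 1000 genes and no more than 10% mitochondrial UMIs, they were 10.8% in the ventral knockout and 14.2% and 11.6% in the dorsal and ventral controls. The reporter share at 1 UMI unthinned was 81.2% and 79.6% in the knockouts and 82.3% and 87.8% in the controls, and 63.1% in the dorsal control at 3 UMIs. With at least 20 UMIs and no CPM minimum, genes past the fold numbered 660 higher and 870 lower in knockout over control members dorsally and 140 and 492 ventrally, and 591 and 1185 in dorsal over ventral knockouts and 433 and 1296 in dorsal over ventral controls. Median-of-ratios size factors put 270 genes on the ventral side in knockouts and moved the all-gene median there to 0.01. Scrublet left 18 genes lower in ventral knockouts. Of the 15 most variable genes, 9 were shared at 8000 UMIs. No tested named gene and no named ratio past 2-fold changed direction under these alternatives. Named ratios short of 2-fold were not checked for direction. The actin, BMP and heat shock medians of dorsal over ventral knockouts changed sign with size factors. Of the named genes' tests under alternatives, 548 kept and 44 lost their call, and of the named ratios 920 moved by less and 420 by more than their interval. Depth limits genes below about 20 CPM, and the 144 Krt14-high cells limit that comparison.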

Other observations

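Growth factor and hormone-response genes in members were also measured. Of 15 glucocorticoid-responsive genes, 1 was higher and 3 lower than in Krt14-high cells, and 4 were higher and 1 lower than in dividing cells (edgeR, library block). Heat shock and unfolded protein genes gave 2 of 18 higher than in Krt14-high cells and none lower, and 4 higher and 1 lower than in dividing cells. Notch pathway genes gave none of 13 past the test against Krt14-high cells and none of 14 against dividing cells. In the same 2 comparisons, YAP targets gave none of 16, and 1 of 16 higher.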
